A study of Mus musculus with 8 samples.

Results

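Genes of the interferon response and of antigen presentation were followed in mouse embryonic cells in which the zinc finger gene Zfp462 had been knocked out and in their controls. The set held 44 genes listed by symbol, covering the immunoproteasome, the major histocompatibility complex (MHC) class I machinery, interferon-stimulated genes and sensors of foreign RNA or DNA, out of 55401 genes in the count table. All 44 were found by Ensembl ID. A gene was kept with at least 10 counts summed over the 8 libraries, which left 43, and 41 of these had enough counts for a test of differential expression. The genes were chosen by pathway with earlier results of these data known, and kept by their total count, which is the one measured value that the rule names. Usp18, with 15 counts, lay just inside that limit and Ifit3, with 8 counts, just outside it, while the other kept genes ran up to 29818 counts.

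The libraries came from R1, a mouse embryonic stem cell (ESC) line, and fell into 4 groups of 2 libraries each. Knockout ESCs and control ESCs were grown on gelatin in medium with serum and leukaemia inhibitory factor (LIF), a cytokine that keeps them undifferentiated. Knockout and control embryoid bodies (EBs), which are aggregates formed by ESCs in suspension, were collected after 3 days. The knockout lines were stable, and the control is labelled as wild type. How many clones there were and which part of Zfp462 was deleted is not given in the sources. Separate cultures are not stated for the paired libraries of a group, so the p-values measure the spread between these libraries.

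Libraries held 12119763 to 16228426 counts. Zfp462 RNA was measured at 104 and 107 counts scaled to a common library size (CPM) in knockout ESCs, against 183 and 197 CPM in control ESCs, and at 102 and 102.5 CPM in knockout EBs, against 153 and 130.3 CPM in control EBs. In neither stage did the genotypes overlap. Knockout EB replicate 1 held RNA of adult liver genes, with all 20 liver markers at 10 or more counts and a summed level of 2364 CPM, against 6.33 to 35.5 CPM in the other 7 libraries. Of those 7, control EB replicate 2 stood highest, at 35.5 CPM, with 12 of the 20 markers at 10 or more counts. The replicates of knockout ESCs differed from each other along gene GC content (correlation of their log2 difference with GC 0.46 across 17125 genes, against -0.03 to 0.00 in the other groups). Pluripotency markers summed to 3672 CPM or more in every library, and all 9 had at least 10 counts in each. Of 17 leukocyte and macrophage markers, 5 to 8 had 10 or more counts in a library, and the list summed to 44.3 to 69.2 CPM, with Cd68 and Laptm5 the highest in each library. The defining markers Adgre1, at 0 counts in all libraries, and Ptprc, at 0 to 2, were near 0.

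Interferons are secreted proteins that signal through receptors and Janus kinases to STAT and IRF transcription factors, which switch on antiviral genes in most cell types. Interferon also raises the immunoproteasome, a form of the proteasome with exchanged catalytic subunits, and the machinery that loads its peptides onto MHC class I for display to T cells. Pluripotent cells are known for a weak interferon response and low MHC class I. Many of the genes lie close together. Of the 44, 21 lay in 6 groups of neighbours no more than 200 kb apart on mouse build mm10. They included 6 genes over 300.4 kb in the MHC region (chromosome 17, 33915899 to 34216321: Tapbp, H2-K1, Psmb9, Tap1, Psmb8 and Tap2), 4 guanylate-binding protein genes over 107.7 kb (chromosome 3, 142530342 to 142638008: Gbp7, Gbp3, Gbp2b and Gbp2) and 3 Ifitm genes over 55.9 kb (chromosome 7, 140954837 to 141010770).

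Interferon-responsive promoters often carry an interferon-stimulated response element (ISRE), bound by IRF proteins and STAT complexes, or a gamma-activated site (GAS), bound by STAT dimers. The letters GAAA, any 2 bases and GAAA again for the ISRE, and TTCNNNGAA for the GAS, were searched on both strands of RefSeq windows (GRCm38.p6) running from 250 bases before to 50 after each start. Of the 36 genes of the set with such a window, 17 (47.22%) held the ISRE letters and 9 (25%) the GAS letters. Among all 27025 genes with a window, 3.99% and 9.55% did. A match is a description of the letters and does not show a used site. The 250 bases before the start of 4 genes that differed in the knockout are printed below, with matches in capitals. Psmb8 (chr17:34197945-34198194, plus strand) and Irf1 (chr11:53769764-53770013, plus strand) each hold a GAS match, 97 and 90 bases before the start. Gbp3 (chr3:142559794-142560043, plus strand) holds a pair of overlapping ISRE matches, first base at 45 and 39 bases before the start, in reverse-strand letters. B2m (chr2:122147437-122147686, plus strand) holds an ISRE match 139 bases before the start.
Psmb8: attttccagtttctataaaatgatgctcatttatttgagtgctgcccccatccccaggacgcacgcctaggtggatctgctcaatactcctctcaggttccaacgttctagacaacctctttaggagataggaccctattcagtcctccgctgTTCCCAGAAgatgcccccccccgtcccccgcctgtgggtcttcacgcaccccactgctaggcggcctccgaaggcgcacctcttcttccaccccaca
Irf1: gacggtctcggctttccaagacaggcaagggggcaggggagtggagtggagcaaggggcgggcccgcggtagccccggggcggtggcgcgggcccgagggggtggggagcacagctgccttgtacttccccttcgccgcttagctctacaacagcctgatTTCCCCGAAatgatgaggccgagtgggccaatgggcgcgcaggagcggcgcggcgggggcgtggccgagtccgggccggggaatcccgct
Gbp3: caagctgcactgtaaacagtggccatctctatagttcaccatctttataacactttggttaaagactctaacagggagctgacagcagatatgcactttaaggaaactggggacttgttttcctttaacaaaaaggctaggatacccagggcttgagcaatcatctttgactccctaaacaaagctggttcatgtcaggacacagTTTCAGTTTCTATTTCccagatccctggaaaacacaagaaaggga
B2m: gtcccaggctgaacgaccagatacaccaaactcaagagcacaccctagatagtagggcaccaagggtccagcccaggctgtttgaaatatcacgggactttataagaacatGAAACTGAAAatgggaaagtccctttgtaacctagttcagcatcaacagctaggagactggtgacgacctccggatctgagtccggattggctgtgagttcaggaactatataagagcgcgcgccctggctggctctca

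With the knockout the interferon and antigen presentation genes differed in both directions. In knockout ESCs the MHC class I chain genes H2-K1 and H2-D1 and their partner B2m were higher than in control ESCs, while 3 of 4 guanylate-binding protein genes, all 3 Ifitm genes, Irf1 and the immunoproteasome subunit gene Psmb8 were lower. In knockout EBs, B2m was again higher, and 4 of the 5 genes for immunoproteasome and activator subunits were lower, as was the peptide transporter gene Tap2. Xaf1, which encodes a pro-apoptotic interferon-induced protein, was about 2-fold higher with the knockout in both stages. Among the EB calls, only that of Xaf1 held with each library left out in turn, and most ESC calls were lost in some such fit.

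In the ESC comparison 6 (14.6%) of the 41 genes were called higher with the knockout and 11 (26.8%) lower at an adjusted p below 0.05 in edgeR's quasi-likelihood test, against 8.3% higher and 6.2% lower among all 17125 genes (14.5% either way). Their median log2 fold change was -0.30, against -0.03 over all genes. In EBs 2 (4.88%) were called higher with the knockout and 9 (22%) lower, against backgrounds of 4.75% and 2.04% (6.8% either way), with a median of -0.27 against 0.00. The share higher in EBs was close to that of all genes, while the share lower was above it in both stages. The genes and lists had been chosen with earlier results known, and no test of the set was made. With 2 libraries per group, genotypes can lie apart without a true difference. How many of all genes were apart was not counted, so separation alone is a description. In bulk RNA, fewer cells of a type and less RNA per cell cannot be told apart.

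The knockout comparisons of ESCs and EBs share no libraries, but both use an estimate of the spread made from all 8 libraries, so their calls are not independent. Lower in both were Psmb8, Irf1, Gbp3, Ifitm1 and Ifitm3, which are 5 of the 11 lower in ESCs (45.5%) and 5 of the 9 lower in EBs (55.6%). Among all genes 194 were lower in both, or 18.3% of those lower in ESCs and 55.4% of those lower in EBs. The share of the EB list was thus close to that of all genes. Higher in both were B2m and Xaf1, 2 of the 6 higher in ESCs (33.3%, against 38% of all genes higher there) and both of the 2 higher in EBs (100%, against 66.3%). No gene of the set was called in opposite directions (among all genes 7 were higher in ESCs and lower in EBs, and 9 the reverse), and 20 (48.8%) were called in neither stage, against 83.1% of all genes. RefSeq windows of these 7 genes held ISRE letters for Gbp3, Ifitm3 and B2m and GAS letters for Psmb8, Irf1 and Ifitm3, so matches occurred among genes that were lower and among genes that were higher.

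**Figure D1:**
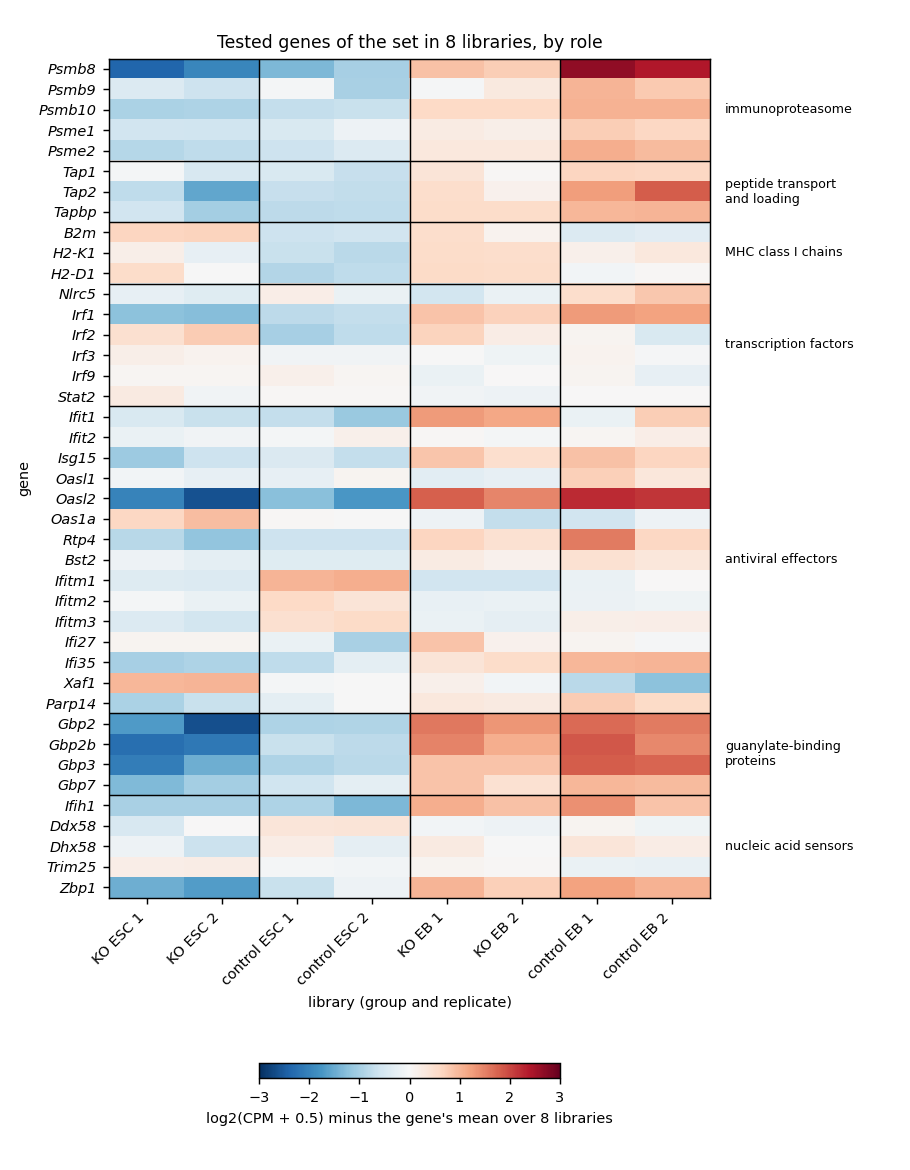
Level of each tested gene in the 8 libraries, as log2(CPM + 0.5) minus the gene's mean over the libraries, with genes down the page by role and libraries across, 2 per group. B2m and Xaf1 are higher in the knockout libraries of each stage, while most immunoproteasome and guanylate-binding protein genes are higher in EBs than in ESCs in both genotypes.

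Calls in ESCs rested on few libraries. Those of B2m, H2-D1, Xaf1, Gbp2b, Ifitm1 and Ifitm3 held with each of the 8 libraries left out in turn, and under the 9 other settings tried. The other 11 calls were lost with at least 1 library left out, at adjusted p of 0.0517 to 0.264, and 8 of the 17 held when the ESC libraries were fitted alone. Without knockout ESC replicate 2, 7 genes were called higher and 12 lower. Calls over all genes moved as well, with 756 to 4729 in ESCs with a library left out, against 2483 from all 8 libraries. In EBs the call of Xaf1 was the only one of 11 to hold with every library left out. Without control EB replicate 1 no gene was called lower and 1 higher, and without knockout EB replicate 1, the library with liver RNA, 2 were called lower and 1 higher. In the same fits the calls over all genes fell to 236 and 410, against 1164.

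**Figure D2:**
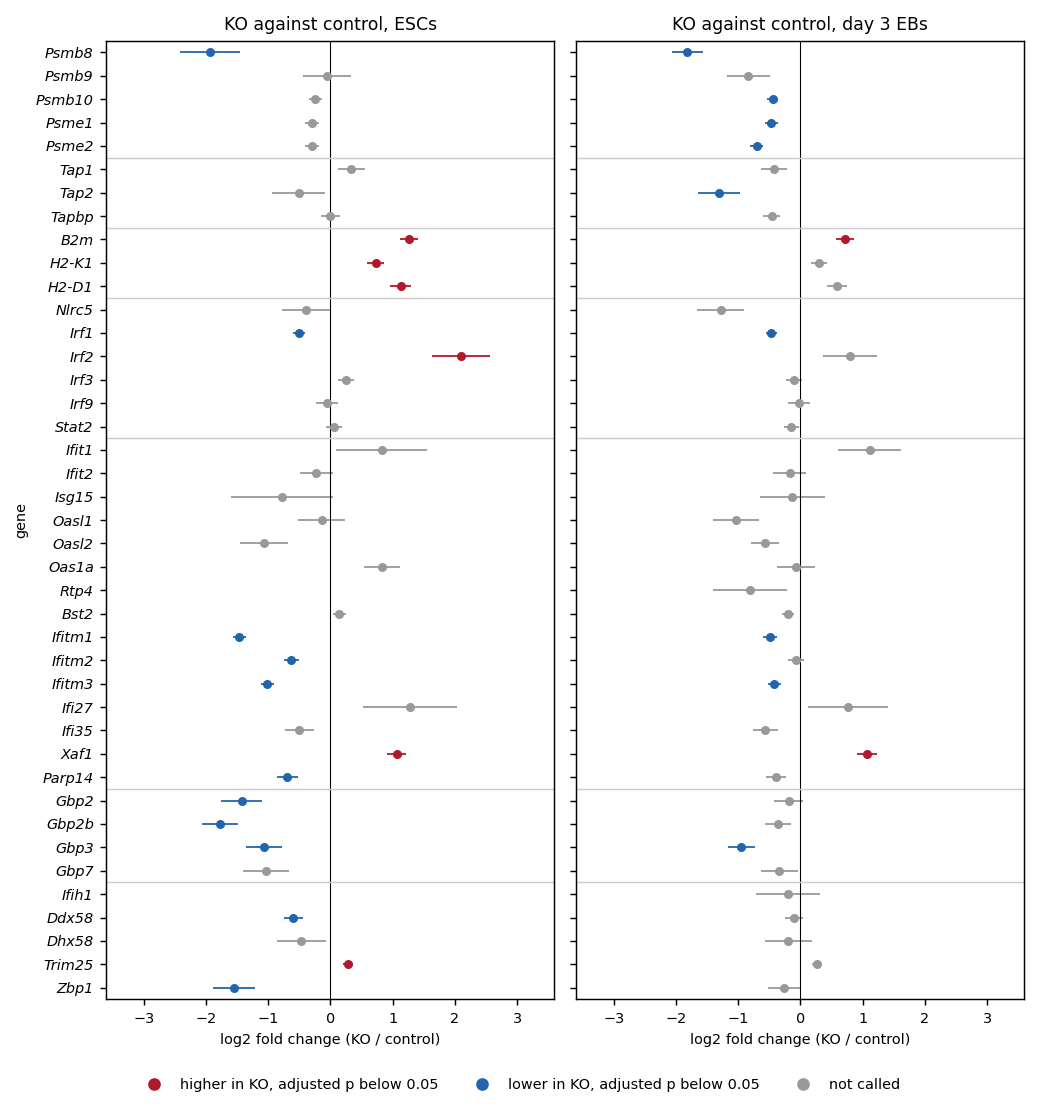
Log2 fold change of knockout over control with its standard error (bars) for each tested gene, by role, in ESCs and in EBs, with red or blue points for genes called higher or lower at an adjusted p below 0.05. Rtp4 and Ifih1, with 0 to 4 counts in each ESC library, are not drawn for ESCs. The 3 MHC class I chain genes and Xaf1 lie to the right of 0 in both stages, and all immunoproteasome and guanylate-binding protein genes lie to the left of it.

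The immunoproteasome genes encode 3 inducible catalytic subunits (Psmb8, Psmb9 and Psmb10) and the PA28 activator (Psme1 and Psme2), which opens the proteasome for peptide release. Psmb8 was measured at 0.146 and 0.364 CPM in knockout ESCs, against 0.814 and 1.17 CPM in control ESCs. In EBs it stood at 5.65 and 5.10 CPM with the knockout, against 20.8 and 17.1 CPM in controls. The genotypes did not overlap in either stage, and knockout EBs lay well below control EBs. The knockout difference in Psmb8 was -1.94 ± 0.48 on the log2 scale in ESCs (standard error, adjusted p 0.0225), where the knockout libraries held only 2 and 5 counts, and -1.82 ± 0.25 in EBs (adjusted p 0.00218). The ESC call was lost without knockout ESC replicate 1 (adjusted p 0.0605) or either control ESC library (0.0537 and 0.184). Its fitted ESC change was -1.46 without knockout ESC replicate 1 and -2.72 without replicate 2. In EBs the difference missed the threshold once control EB replicate 1 was left out (0.0700).

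Psmb10 had 76.3 and 75.4 CPM in knockout EBs, against 103.0 and 103.4 CPM in control EBs, and 25.7 and 26.1 CPM in knockout ESCs, against 30.1 and 31.1 CPM in control ESCs. The knockout libraries were below the controls in both stages, and the EB difference of -0.44 ± 0.09 passed (adjusted p 0.0175), while the ESC difference of -0.24 did not (0.139). Psme1 had 81.7 and 77.2 CPM in knockout EBs, against 114 and 105 CPM in control EBs, a difference of -0.46 ± 0.11 (adjusted p 0.0344). In ESCs it had 45.9 and 44.8 CPM with the knockout, against 49.99 and 61.2 CPM in controls (-0.30, adjusted p 0.12). Neither stage showed overlap of the Psme1 values.

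Psme2 had 74.3 and 74.4 CPM in knockout EBs, against 127 and 115 CPM in control EBs, a difference of -0.70 ± 0.11 (adjusted p 0.00366). In ESCs the values were 32.5 and 35.0 CPM with the knockout, against 38.4 and 44.5 CPM in controls (-0.30, adjusted p 0.109). Knockout libraries lay below control libraries in both stages, but 59.26% of the 50-base stretches of Psme2 also occur in its copy Psme2b, so its counts are uncertain. Psmb9 had 3.54 and 4.57 CPM in knockout EBs, against 7.82 and 6.67 CPM in control EBs, without passing (-0.84 ± 0.34, adjusted p 0.184). In ESCs the knockout values of 2.62 and 2.18 CPM lay within the control values of 3.501 and 1.60 CPM (adjusted p 0.946). The EB calls of Psmb10 and Psme1 were lost without any 1 of the control ESC, control EB or knockout EB libraries (adjusted p 0.0559 to 0.272), and that of Psme2 without control EB replicate 1 (0.0773).

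Set per length against the constitutive subunits that they replace, the inducible subunits stood at very different shares. On the RPKM scale, which divides CPM by gene length, Psmb8 reached 1.54% and 1.46% of Psmb5 in knockout EBs, against 5.52% and 4.38% in control EBs, and 0.0469% and 0.108% in knockout ESCs, against 0.252% and 0.315% in control ESCs. Psmb10 stood at 109.7% and 108.7% of Psmb7 in knockout EBs, against 145.8% and 129.5% in control EBs, and at 38.0% and 35.6% in knockout ESCs, against 44.5% and 44.8% in control ESCs. Psmb9 stayed at 0.300% to 1.38% of Psmb6 in all 8 libraries. Psmb10 RNA exceeded that of its constitutive counterpart in all 4 EB libraries, while Psmb8 and Psmb9 RNA stayed far below theirs. Of the 16 constitutive proteasome genes tested, none was called in either knockout comparison.

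**Figure D3:**
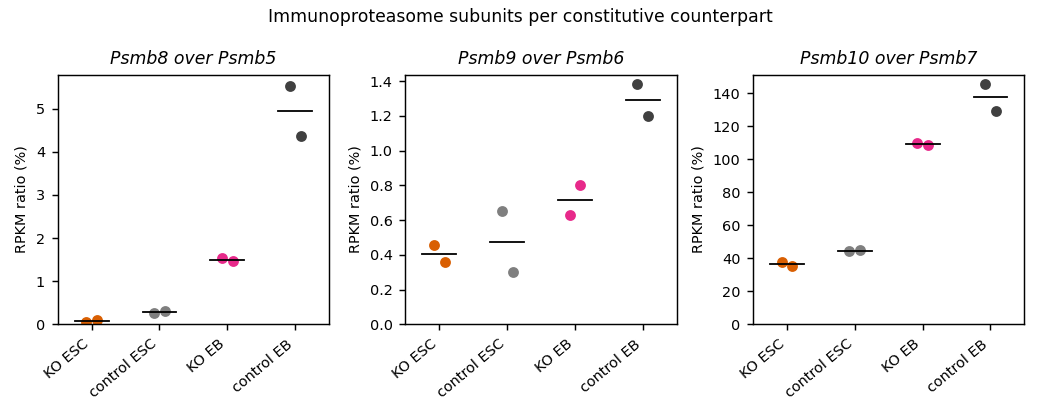
RPKM of each inducible proteasome subunit as a percentage of the constitutive subunit it replaces, with 1 point per library and a line at each group mean. Psmb8 relative to Psmb5 is lower in knockout than in control libraries in both stages and higher in EBs than in ESCs, and Psmb10 relative to Psmb7 passes 100% in all 4 EB libraries. Percentages between genes are approximate, because they rest on the deposited gene lengths.

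Tap1 and Tap2 form the transporter that carries peptides into the endoplasmic reticulum, where tapasin, encoded by Tapbp, bridges it to MHC class I. Tap2 had 4.97 and 3.65 CPM in knockout EBs, against 8.62 and 12.9 CPM in control EBs, without overlap. That difference of -1.31 ± 0.33 passed (adjusted p 0.0429) and was lost without any 1 of the control ESC, control EB or knockout EB libraries (0.116 to 0.26). In ESCs Tap2 had 1.75 and 0.801 CPM with the knockout, against 1.87 and 1.78 CPM in controls (-0.51, adjusted p 0.476).

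Tapbp had 49.9 and 49.99 CPM in knockout EBs, against 68.5 and 68.9 CPM in control EBs, a separation of -0.46 ± 0.14 that missed the threshold (adjusted p 0.0737). In ESCs its values overlapped, at 22.7 and 16.5 CPM with the knockout and 19.5 and 19.8 CPM in controls. Tap1 had 15.7 and 12.3 CPM in knockout EBs, against 19.0 and 18.7 CPM in control EBs (-0.43, adjusted p 0.27), and 11.5 and 8.37 CPM in knockout ESCs, against 8.63 and 7.19 CPM in control ESCs (0.34, adjusted p 0.364). None of the 3 passed in ESCs. Tap1 shares 212 bases of exon with Psmb9 on the opposite strand, so without a stated strand setting part of the counts could belong to either.

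The MHC class I molecule pairs a heavy chain, encoded by H2-K1 or H2-D1, with beta-2-microglobulin, encoded by B2m, and all 3 genes were higher in knockout ESCs. B2m had 57.4 and 58.4 CPM in knockout ESCs, against 23.7 and 24.4 CPM in control ESCs, a log2 change of 1.27 ± 0.14 (adjusted p 0.000254). H2-D1 had 59.5 and 39.96 CPM in knockout ESCs, against 21.8 and 23.5 CPM in control ESCs, a change of 1.13 ± 0.17 (adjusted p 0.00148). H2-K1 had 96.8 and 72.7 CPM in knockout ESCs, against 53.7 and 48.9 CPM in control ESCs (0.73 ± 0.14, adjusted p 0.00544). The genotypes were apart for each gene, and only the H2-K1 call was lost with a library left out, namely either control ESC library (0.0576 and 0.116). Of their 50-base stretches, 14.32% of H2-D1 and 8.79% of H2-K1 also occur in other genes.

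In EBs the class I differences had the same sign and smaller fitted values, and the change in effect between stages did not pass for any of the 3. B2m had 52.9 and 39.8 CPM in knockout EBs, against 27.5 and 28.9 CPM in control EBs (0.72 ± 0.14, adjusted p 0.0138). Its call was lost without knockout EB replicate 1, where the log2 change was 0.50 (adjusted p 0.191), and without either control EB library (0.171 and 0.0912) or either control ESC library (0.0514 and 0.0512). H2-D1 had 60.6 and 59.1 CPM in knockout EBs, against 38.2 and 41.5 CPM in control EBs, also apart but short of the threshold (0.59 ± 0.16, adjusted p 0.0607). H2-K1 had 127 and 123 CPM with the knockout, against 95.1 and 108 CPM in controls (0.30, adjusted p 0.22). Differences between the stage effects were -0.55 for B2m (adjusted p 0.276), -0.54 for H2-D1 (0.38) and -0.42 for H2-K1 (0.396).

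Markers of other cell types moved with genotype beside these genes. The 14 extraembryonic endoderm markers, all detected in every library, were all called higher with the knockout in both stages. They summed to 16390 and 13390 CPM in knockout ESCs, against 3749 and 3918 CPM in control ESCs, and to 8222 and 9093 CPM in knockout EBs, against 4277 and 4519 CPM in control EBs. The 10 markers of the 2-cell-like state were also all called higher in both stages, at 351 and 448 CPM in knockout ESCs, against 88.6 and 94.7 CPM in control ESCs, and 165 and 187 CPM in knockout EBs, against 23.5 and 28.8 CPM in control EBs. The 7 markers of formative and primed epiblast, the state after the naive one, differed in the other direction in EBs, with 6 called lower (median log2 change -0.95) and sums of 1238 and 1217 CPM in knockout EBs, against 2070 and 2205 CPM in control EBs. In ESCs 4 of them were lower and 2 higher, with sums of 382 and 364 CPM with the knockout, against 338 and 361 CPM in controls. Of the 9 pluripotency markers, 5 were lower in knockout ESCs and none higher, at 4598 and 4676 CPM in knockout ESCs, against 6093 and 6163 CPM in control ESCs, and in knockout EBs 2 were higher and 1 lower, at 3760 and 3773 CPM in knockout EBs, against 3837 and 3672 CPM in control EBs. The part of these lists in the differences of the interferon and antigen presentation genes was not tested.

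Nlrc5, the transactivator of MHC class I genes, was called in neither stage. It had 1.53 and 1.38 CPM in knockout ESCs, against 2.28 and 1.60 CPM in control ESCs (-0.40, adjusted p 0.558), and 1.13 and 1.60 CPM in knockout EBs, against 2.98 and 3.69 CPM in control EBs (-1.28 ± 0.38, adjusted p 0.0723). Its EB values were apart, with the knockout lower, in the direction opposite to that of B2m and H2-D1.

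Irf1, an activator of class I, immunoproteasome and guanylate-binding protein genes, was lower with the knockout in both stages. It had 32.3 and 31.7 CPM in knockout ESCs, against 44.5 and 46.5 CPM in control ESCs (-0.51 ± 0.10, adjusted p 0.00718), and 139.8 and 125 CPM in knockout EBs, against 187 and 179 CPM in control EBs (-0.47 ± 0.09, adjusted p 0.0158). The genotypes were apart in both stages and the stage effects differed by 0.04 (adjusted p 0.943). The ESC call was lost without either control ESC library (0.0569 and 0.102), and the EB call without any 1 of the control ESC, control EB or knockout EB libraries (0.0559 to 0.186). Irf1 shares 796 bases of exon with Gm17334 on the opposite strand, which held 333 counts.

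Irf2, a factor that competes with Irf1 for its sites, differed the other way in ESCs. It had 2.26 and 2.84 CPM in knockout ESCs, against 0.489 and 0.676 CPM in control ESCs (2.09 ± 0.47, adjusted p 0.0135). That separated difference was lost without either control ESC library (0.132 and 0.103). The control values were low, since a count of 0 in those libraries allows 0.248 and 0.185 CPM (3 counts, counting error only). In EBs Irf2 had 2.64 and 1.83 CPM with the knockout, against 1.59 and 0.941 CPM in controls (0.80, adjusted p 0.325). The partners of the interferon-activated complex ISGF3 were well expressed and not called in any comparison. Stat2 ran from 55.3 to 74.1 CPM and Irf9 from 11.8 to 15.7 CPM over the 8 libraries, and Irf3, which acts downstream of the RNA and DNA sensors, from 23.1 to 28.7 CPM. Irf7, the amplifier of type I interferon, had 29 counts over all libraries and was not tested.

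Among antiviral effectors, the 3 Ifitm genes, which encode membrane proteins that block virus entry, were lower in knockout ESCs. Ifitm1 had 39.6 and 39.2 CPM in knockout ESCs, against 106 and 111 CPM in control ESCs (-1.47 ± 0.10, adjusted p 1.48e-05). Ifitm3 had 40.1 and 36.5 CPM in knockout ESCs, against 74.5 and 80.2 CPM in control ESCs (-1.02 ± 0.10, adjusted p 0.000154). Ifitm2 had 30.3 and 27.7 CPM in knockout ESCs, against 48.3 and 41.3 CPM in control ESCs (-0.63 ± 0.12, adjusted p 0.00696). The genotypes were far apart for Ifitm1 and Ifitm3. The Ifitm2 call was lost without control ESC replicate 1 (0.101), and 48.51% of its 50-base stretches occur in other genes.

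In EBs Ifitm1 had 34.7 and 34.5 CPM with the knockout, against 45.4 and 51.8 CPM in controls (-0.49 ± 0.11, adjusted p 0.0217), and Ifitm3 had 46.2 and 44.3 CPM, against 59.9 and 61.1 CPM (-0.42 ± 0.10, adjusted p 0.0374). Both were separated by genotype, and both calls were lost without any 1 of the control ESC, control EB or knockout EB libraries (0.0695 to 0.279). Ifitm2 in EBs stood at 27.1 and 27.4 CPM with the knockout, against 28.2 and 29.1 CPM in controls (-0.07, adjusted p 0.794). The knockout effect on Ifitm1 was smaller in EBs than in ESCs by 0.98 ± 0.15 on the log2 scale (adjusted p 0.0133). This was the 1 call (2.44%) among the 41 genes in that contrast, against 0.742% higher and 0.642% lower among all genes (1.38% either way). It was lost without any 1 of the control ESC, control EB or knockout EB libraries (0.0602 to 0.18). In knockout cells the level of Ifitm1 in EBs relative to ESCs was -0.19 on the log2 scale (adjusted p 0.269), against -1.16 ± 0.10 in control cells (4.43e-05).

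Xaf1 was the one effector called higher with the knockout. It had 44.8 and 45.9 CPM in knockout ESCs, against 21.4 and 21.99 CPM in control ESCs (1.06 ± 0.15, adjusted p 0.00123), and 24.9 and 21.0 CPM in knockout EBs, against 12.5 and 9.25 CPM in control EBs (1.07 ± 0.17, adjusted p 0.00427). The genotypes were apart in both stages. Parp14, an ADP-ribosyltransferase, differed the other way, with 9.99 and 12.2 CPM in knockout ESCs, against 16.2 and 19.7 CPM in control ESCs (-0.69 ± 0.17, adjusted p 0.0191). Its call was lost without either control ESC library (0.0534 and 0.21). In EBs Parp14 had 24.9 and 24.1 CPM with the knockout, against 34.1 and 30.0 CPM in controls (-0.39, adjusted p 0.177).

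No other antiviral effector was called in a knockout comparison. Oasl2, a relative of the oligoadenylate synthetases, had 1.17 and 0.582 CPM in knockout ESCs, against 2.28 and 1.47 CPM in control ESCs (-1.07, adjusted p 0.092), and 22.7 and 17.8 CPM in knockout EBs, against 30.9 and 29.0 CPM in control EBs (-0.57, adjusted p 0.167). Oas1a, which shares 57.57% of its 50-base stretches with Oas1g, had 7.29 and 9.03 CPM in knockout ESCs, against 4.64 and 4.55 CPM in control ESCs (0.83, adjusted p 0.0835), and 4.07 and 2.59 CPM in knockout EBs, against 2.92 and 4.08 CPM in control EBs. The genotypes were apart for Oasl2 in both stages and for Oas1a in ESCs, which with 2 libraries per group can happen without a difference. Ifi35, which encodes a leucine zipper protein, had 4.08 and 4.37 CPM in knockout ESCs, against 4.89 and 7.003 CPM in control ESCs, and 11.6 and 12.9 CPM in knockout EBs, against 18.0 and 18.3 CPM in control EBs (-0.56, adjusted p 0.137). Bst2, which encodes the virus-tethering protein tetherin, had 78.5 and 70.8 CPM in knockout ESCs, against 67.4 and 67.8 CPM in control ESCs (0.14, adjusted p 0.398), and 103 and 94.6 CPM in knockout EBs, against 118 and 109 CPM in control EBs (-0.21, adjusted p 0.263).

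Isg15, a ubiquitin-like modifier, stayed between 0.0729 and 1.72 CPM, and Ifit1, which binds viral RNA ends, between 0.184 and 3.09 CPM. Ifit2 ran from 3.06 to 4.23 CPM and Oasl1 from 1.36 to 3.32 CPM over the 8 libraries, and Ifi27 stayed at 1.73 CPM or less. Rtp4 had 2 and 0 counts in knockout ESCs, against 3 and 4 counts in control ESCs, and 17 and 14 counts in knockout EBs, against 43 and 16 counts in control EBs. Ifit3 had 8 counts in all, 6 of them in knockout EB replicate 1, and Usp18, which dampens interferon signalling, had 15, of which 6 were in knockout ESC replicate 2 and 8 in knockout EB replicate 1. None of these genes was called between genotypes.

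Guanylate-binding proteins are large GTPases that attack intracellular pathogens. All 4 were lower in knockout ESCs on the fitted scale, 3 of them past the threshold. Gbp2b had 1.24 and 1.38 CPM in knockout ESCs, against 4.72 and 4.30 CPM in control ESCs (-1.77 ± 0.29, adjusted p 0.00233). Gbp2 had 2.11 and 0.873 CPM in knockout ESCs, against 3.99 and 4.05 CPM in control ESCs (-1.42 ± 0.33, adjusted p 0.0159). Gbp3 had 1.02 and 1.82 CPM in knockout ESCs, against 2.85 and 3.13 CPM in control ESCs (-1.07 ± 0.29, adjusted p 0.0324). All 3 were separated by genotype. The call of Gbp2 was lost without either control ESC library (0.0973 and 0.128), and its fitted change depended on the knockout library, at -2.20 without knockout ESC replicate 1 and -0.93 without replicate 2. That of Gbp3 was lost with any library left out except knockout ESC replicate 2 (0.052 to 0.2). Gbp7 had 0.729 and 1.02 CPM in knockout ESCs, against 1.55 and 2.03 CPM in control ESCs (-1.04, adjusted p 0.0965).

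In EBs Gbp3 was again lower, with 11.1 and 11.0 CPM in knockout EBs, against 21.9 and 20.7 CPM in control EBs (-0.95 ± 0.22, adjusted p 0.0274). It was lost without any 1 of the control ESC, control EB or knockout EB libraries (0.0734 to 0.207). Gbp2b had 23.04 and 17.3 CPM in knockout EBs, against 29.6 and 22.04 CPM in control EBs (-0.36, adjusted p 0.353), and Gbp2 had 24.8 and 20.6 CPM, against 27.1 and 24.5 CPM (-0.19, adjusted p 0.706). Gbp7 had 5.12 and 3.73 CPM with the knockout, against 5.70 and 5.49 CPM in controls (-0.34, adjusted p 0.568). Gbp2b and Gbp2 overlapped between genotypes in EBs, and Gbp3 did not. The knockout effect in EBs minus that in ESCs was 1.41 for Gbp2b (adjusted p 0.103) and 1.24 for Gbp2 (0.22), so a change of effect between stages was not called.

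Among the genes of nucleic acid sensing, the sensor genes Zbp1 and Ddx58 were lower in knockout ESCs. Trim25, whose product is not itself a sensor, was higher there, and none of the group was called between genotypes in EBs. Zbp1, a sensor of Z-form nucleic acid, had 1.09 and 0.873 CPM in knockout ESCs, against 2.28 and 3.44 CPM in control ESCs (-1.55 ± 0.34, adjusted p 0.0122). Ddx58, which encodes the RNA sensor RIG-I, had 36.5 and 51.3 CPM in knockout ESCs, against 65.5 and 67.6 CPM in control ESCs (-0.60 ± 0.15, adjusted p 0.0238). Trim25, the ubiquitin ligase that activates RIG-I, had 308 and 316 CPM in knockout ESCs, against 259.8 and 255 CPM in control ESCs (0.28 ± 0.08, adjusted p 0.0347). All 3 were apart by genotype. The Zbp1 call was lost without control ESC replicate 2 (0.139), that of Ddx58 without either control ESC or either control EB library (0.0517 to 0.187), and that of Trim25 without any library other than those of knockout ESCs (0.0722 to 0.264). The fitted change of Ddx58 was -0.39 without knockout ESC replicate 1 and -0.87 without replicate 2.

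In EBs Zbp1 had 8.51 and 6.70 CPM with the knockout, against 9.75 and 8.55 CPM in controls (-0.27, adjusted p 0.615). Ddx58 had 48.6 and 45.7 CPM, against 54.1 and 47.0 CPM (-0.10, adjusted p 0.756), and Trim25 had 283 and 277 CPM, against 236 and 231 CPM (0.26 ± 0.08, adjusted p 0.0724). Trim25 was apart between genotypes, with a fitted change close to that in ESCs. Ifih1, which encodes the RNA sensor MDA5, had 2 and 2 counts in knockout ESCs, against 2 and 0 counts in control ESCs, and 29 and 24 counts in knockout EBs, against 42 and 23 counts in control EBs. Dhx58, which encodes the RIG-I relative LGP2, ran from 1.16 to 2.85 CPM with no call.

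**Figure D4:**
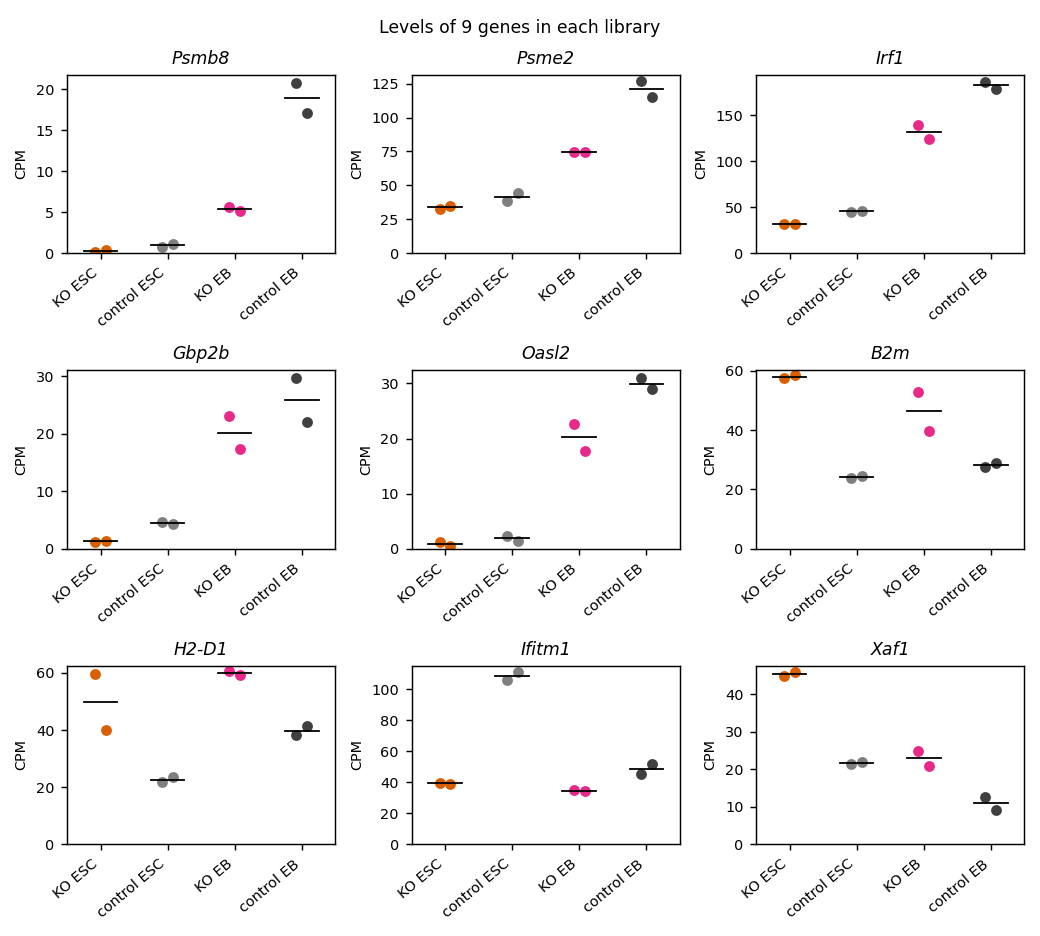
CPM of 9 genes of the set in each library, by group, with 1 point per library and a line at each group mean. B2m, H2-D1 and Xaf1 are higher in the knockout in both stages, Ifitm1, Irf1 and Psmb8 are lower, and Psmb8, Psme2, Irf1, Gbp2b and Oasl2 are higher in EBs than in ESCs.

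More genes of the set were called between stages than between genotypes, and most were higher in EBs. In knockout cells 21 (51.2%) of the 41 genes were called higher and 2 (4.88%) lower in EBs than in ESCs, against 8.23% and 7.11% of all genes (15.3% either way), with a median log2 change of 0.68. In control cells 24 (58.5%) were higher and 4 (9.76%) lower in EBs than in ESCs, against 8.6% and 9.63% of all genes (18.2% either way), with a median of 1.10. Genes such as Rtp4, Isg15 and Ifih1 had enough counts for a test only because of the EB libraries, so these shares describe the genes tested. The 21 higher in knockout EBs were all among the 24 higher in control EBs (100% and 87.5% of each list). Among all genes 752 were higher in both, or 53.3% of those higher in knockout EBs and 51.1% of those higher in control EBs. Without knockout EB replicate 1, the library with liver RNA, 14 genes of the set were higher and 2 lower in knockout EBs than in knockout ESCs, and calls over all genes fell to 843, against 2627.

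Markers of cell state moved with stage beside these genes. All 7 formative and primed epiblast markers rose in EBs, with a median log2 change of 2.69 in the knockout and 3.24 in controls. Of the 9 pluripotency markers 4 were lower and 2 higher in knockout EBs than in knockout ESCs, and 6 were lower and 2 higher in control EBs than in control ESCs. Of the 10 markers of the 2-cell-like state 8 were lower in EBs in the knockout and 7 in controls. The 14 extraembryonic endoderm markers moved differently by genotype. In the knockout 8 were lower and 3 higher in EBs than in ESCs, and in controls 3 were lower and 5 higher. The stage change was lower in the knockout than in controls for 7 of the 14, and for 3 of the 7 formative and primed epiblast markers. It was higher for 2 of the 9 pluripotency markers. The part of these lists in the stage differences of the set was not tested.

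Psmb8 rose with differentiation by 4.35 ± 0.39 in the knockout (adjusted p 8.47e-05) and by 4.22 ± 0.30 in controls (adjusted p 1.12e-05), and the rise in the knockout minus that in controls was 0.13 (adjusted p 0.951). Irf1 rose by 2.05 ± 0.10 in the knockout and 2.01 ± 0.10 in controls (adjusted p 2.49e-06 and 1.28e-06). Psmb10 rose by 1.55 ± 0.10 in the knockout and 1.76 ± 0.10 in controls (adjusted p 9.54e-06 and 2.87e-06). All 4 guanylate-binding protein genes rose in both genotypes, by 2.33 to 3.93 in the knockout and by 1.63 to 2.83 in controls. Oasl2 rose by 4.52 ± 0.31 in the knockout and 4.02 ± 0.28 in controls, Tapbp by 1.35 ± 0.14 in the knockout and 1.81 ± 0.14 in controls, and Ifi35 by 1.54 ± 0.22 in the knockout and 1.60 ± 0.21 in controls. Zbp1 rose by 2.94 ± 0.32 in the knockout (adjusted p 0.000262) and by 1.66 ± 0.28 in controls (0.00274). For none of these genes was the difference between the rises of the genotypes called.

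Xaf1, the Ifitm genes and Oas1a were the genes called lower in EBs. Xaf1 differed between EBs and ESCs by -0.98 ± 0.15 in the knockout (adjusted p 0.00249) and by -0.99 ± 0.17 in controls (0.00268). Ifitm2 and Ifitm3 were not called in the knockout and were lower in control EBs (-0.64 ± 0.12 and -0.36 ± 0.10, adjusted p 0.00558 and 0.0345), while the difference of the 2 stage effects did not pass (0.203 and 0.0915). The Ifitm3 call in controls was also lost with the replicate number as a block (adjusted p 0.0520) and with DESeq2 (0.0646). Oas1a was lower in knockout EBs than in knockout ESCs (-1.29 ± 0.29, adjusted p 0.0161), with -0.40 in controls (0.392). B2m was called between stages in neither genotype (-0.32 in the knockout, adjusted p 0.142, and 0.23 in controls, 0.303).

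The stage calls of 8 of 23 genes in the knockout and of 10 of 28 in controls were lost with some library left out. In the knockout these were Bst2, H2-K1, Ifih1, Ifit1, Isg15, Oas1a, Rtp4 and Tap2 (adjusted p 0.0545 to 0.203), and in controls Gbp7, H2-D1, Ifit1, Ifitm2, Ifitm3, Isg15, Parp14, Psmb9, Rtp4 and Tap1 (0.0505 to 0.276). Psmb8, Irf1, Psmb10, Psme1, Psme2, Tapbp, Oasl2, Ifi35, Xaf1, Zbp1, Gbp2, Gbp2b and Gbp3 kept their stage calls in both genotypes with every library left out.

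Ordered by RPKM, which puts levels of different genes on a rough common scale, the leading genes differed between the groups. The deposited length covers the exons of a gene and can exceed the expressed transcript, so the order between genes is approximate. Counts of Psme2 are also uncertain because of its copy Psme2b. In knockout ESCs Bst2 led at a mean of 82.7 RPKM, followed by B2m at 67.3 and Ifitm3 at 56.5, while in control ESCs Ifitm3 led at 114 RPKM, followed by Ifitm1 at 99.4 and Bst2 at 74.9. In knockout EBs Bst2 stood at 109.5 RPKM, Ifitm3 at 66.8 and B2m at 53.9, and in control EBs Bst2 at 126, Ifitm3 at 89.2 and Psme2 at 68.6 RPKM.

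Genes around the pathway were read against the shares of all genes, which were 8.3% higher and 6.2% lower in knockout ESCs and 4.75% higher and 2.04% lower in knockout EBs. Of 12 interferon ligand genes, 9 had 0 counts in every library, the other 3 summed to 12 counts, and none could be tested, where 0 counts in a library allow 0.185 to 0.248 CPM (3 counts, counting error only). Among 10 tested receptor and proximal signalling genes, Jak1, the kinase on interferon receptors, was called higher with the knockout in ESCs (0.43, adjusted p 0.0163) and in EBs (0.39, 0.042), 1 gene (10%) in each stage, and no other gene of that list was called between genotypes. Of 6 negative regulators, Ptpn6, a phosphatase that damps cytokine signalling, was the 1 gene (16.7%) lower in knockout ESCs (-0.65, adjusted p 0.0137) and none was called in EBs.

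A list of 12 tested genes around the sensors held adaptors and kinases, and also sensors such as Cgas. Of these 12, 4 (33.3%) were called higher in knockout ESCs, against 8.3% of all genes, and 2 (16.7%) in knockout EBs, against 4.75%. None was lower, against 6.2% and 2.04%. Neither of the EB calls was of an adaptor or a kinase. Zc3hav1, which encodes a zinc finger protein that binds viral RNA, was higher in both stages (0.95 in ESCs, adjusted p 0.000972, and 0.78 in EBs, 0.00786). In ESCs the others were Ikbke (1.33, adjusted p 0.0237), Ticam1 (0.91, 0.0396) and Myd88 (0.69, 0.0449), a kinase and adaptors upstream of IRF and NF-kB factors. In EBs the other was Cgas, the cytosolic DNA sensor (1.19, adjusted p 0.022).

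Of 25 further interferon-stimulated genes, the knockout had 3 higher and 3 lower in ESCs (12% each way, against 8.3% and 6.2% of all genes), and 2 higher and 1 lower in EBs (8% and 4%, against 4.75% and 2.04%). Lgals9, which encodes the lectin galectin-9, was higher in both stages (2.12 in ESCs, adjusted p 0.000173, and 2.21 in EBs, 0.00042), as was Sp110, a nuclear body protein gene that also stands in the 2-cell-like marker list (2.39, adjusted p 0.00125, and 1.74, 0.0187). Shisa5 was higher in ESCs (0.73, adjusted p 0.0076). Lower in ESCs were Parp9 (-0.75, adjusted p 0.0039), Tor3a (-0.58, 0.0172) and Dtx3l (-0.55, 0.0182), whose product pairs with that of Parp9, and Dtx3l was also lower in EBs (-0.50, 0.0368). With differentiation 16 of the 25 (64%) rose in the knockout, against 8.23% of all genes, and 13 (52%) in controls, against 8.6%. A gene could pass the low-count filter through the EB libraries alone, so these shares describe the genes tested. The rises of Cd274, Dtx3l, Igtp, Irgm1, Parp12 and Parp9 held in both genotypes with every library left out. Those of Irgm2 and Lgals3bp held so in controls only. The other rises were each lost without at least 1 library.

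Among 15 other peptide-loading and class I genes, 2 were higher and 2 lower in knockout ESCs (13.3% each way, against 8.3% and 6.2% of all genes). The chaperone genes Calr (0.66, adjusted p 0.000575) and Pdia3 (0.62, 0.00109), whose products fold class I chains, were higher, and the class I gene H2-Q4 (-0.85, adjusted p 0.0143) and the peptide-trimming protease gene Erap1 (-0.67, 0.0459) were lower. In EBs H2-Q10, a class I gene secreted by liver, was the 1 gene (6.67%, against 4.75%) called higher (1.78, adjusted p 0.0491) beside the liver RNA in knockout EB replicate 1, and its call was lost without that library (adjusted p 0.513). The class I genes differed in direction, with H2-K1 and H2-D1 higher and H2-Q4 lower in knockout ESCs. Of the 16 calls in ESCs among these surrounding genes, those of Calr, Lgals9, Parp9, Pdia3, Sp110 and Zc3hav1 held with every library left out, and of the 7 in EBs that of Lgals9. The rest were lost without at least 1 library, most of them without a control ESC library.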

How the data were processed

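RNA was sequenced as poly(A)-selected libraries made with a TruSeq kit, per the labels' protocols, from 4 groups of 2 samples. The authors deposited 1 table of whole-number counts per gene, not normalized, with a length for each gene. HISAT2, featureCounts, DESeq2 and the build mm10 are named in the submitters' processing notes, without settings. Strand, pairing and multi-mapping settings are not stated there, so reads of overlapping genes and near-identical copies can be misassigned.

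Each library's group came from its label. Ensembl IDs without version were matched to GENCODE M21 (55141 of 55401), and all columns of counts were used. The members and lists were chosen with earlier results of these data known. From the deposited counts, edgeR 4.0.16 (R 4.3.3) kept 17125 genes with filterByExpr, scaled with TMM, and fitted its quasi-likelihood test to all 8 libraries with 1 mean per group, Benjamini-Hochberg adjusted over all genes and called at 0.05. CPM used TMM-adjusted library sizes and RPKM the deposited lengths. Standard errors are the log2 change divided by the square root of F. The contrasts were knockout against control in each stage, EBs against ESCs in each genotype, and the difference of the knockout effects. The procedure was tested on simulated counts, where the share of false calls came out above the nominal level in every contrast and a part of the small changes was missed.

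Values per library are given for genes called in a knockout or difference contrast and for those with a mean of at least 5 CPM. Exceptions are Stat2, Irf3 and Irf9, which were called in no comparison and are given by range. Other members are given by range, by counts or per library. Outside the set, Zfp462 is named, as is every gene of the lists around the pathway that was called between genotypes. Further interferon-stimulated genes are also named where their stage calls held with every library left out. Alternatives were other scalings, other low-count filters, a replicate block, only the groups compared, DESeq2 1.42.0, a fold change of at least 2, removal of the GC trend (spline with 5 degrees of freedom) and each library left out. Library totals of 12119763 to 16228426 counts give a limit of 0.185 to 0.248 CPM for a count of 0.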

Additional observations from a re-analysis of the deposited data

Results flagged for a closer look

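The knockout effect on Ifitm1 differed between stages by a test of the difference itself. The effect in EBs minus that in ESCs was 0.98 on the log2 scale (adjusted p 0.0133 in edgeR's quasi-likelihood test), with log2 fold changes of -0.49 in EBs and -1.47 in ESCs. Both knockout libraries lay below both controls in each stage. The call was lost with any 1 of the control ESC, control EB or knockout EB libraries left out (adjusted p 0.0602 to 0.18).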

How the results depend on the processing

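No call of a gene of the set reversed under any alternative run. With only the groups compared, 3 genes were lower in knockout ESCs (11 in the fit of all libraries), 5 higher and 14 lower in knockout EBs (2 and 9), and 1 lower in EBs than ESCs within the knockout (2). With a fold change of at least 2 added, 7 were lower in knockout ESCs, 1 higher and 2 lower in knockout EBs, 1 lower in EBs than ESCs in each genotype (2 in the knockout and 4 in controls), and 0 in the difference contrast (1). Removal of the GC trend gave 5 higher in knockout EBs, 4 lower in EBs than ESCs within the knockout, and 3 higher and 3 lower in the difference contrast (1 and 0). That contrast had 3 higher without a low-count filter and 2 with DESeq2. The cause was not tested, beyond the threshold itself for the fold change.

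With each library left out, knockout ESCs had 3 to 7 genes higher and 4 to 12 lower, and knockout EBs 1 to 5 higher and 0 to 12 lower. EBs against ESCs had 14 to 23 higher and 1 to 2 lower in the knockout, and 17 to 24 higher and 2 to 6 lower in controls. The difference contrast had 0 to 4 higher and 0 to 4 lower. Leaving out a library of a group outside the contrast changed calls as well. In these fits 18202 to 18445 genes passed the low-count filter, against 17125, and the shared estimate of the spread was made again, and their parts in the change were not tested.

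Same-numbered replicates did not deviate together over the genes tested (correlations of -0.09 to 0.02 between groups). What a replicate number shares is not stated in the labels. The correlations cannot show that nothing was shared, since a small effect or one limited to a group would leave them near 0. With the replicate number as a block, knockout ESCs kept 6 higher and 11 lower and knockout EBs had 2 higher and 6 lower, where Psme1 (adjusted p 0.0544), Tap2 (0.0579) and Ifitm3 (0.0592) missed the threshold. Of the stage calls, Ifit1 (0.0589) and Ifitm3 (0.0520) in controls were lost under the block and none in the knockout, and DESeq2 lost Isg15 (0.0587) and Ifitm3 (0.0646) in controls.

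Depth limits the genes with few counts. Psmb8, Rtp4, Ifih1, Isg15 and Ifit1 rested on fewer than 10 counts in each ESC library except for Psmb8 in controls. Irf7 and Usp18 could not be tested.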

Other observations

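Genes of MHC class II, which presents peptides to helper T cells, were detected at low levels. H2-Ab1 had 4.67 and 4.29 CPM in knockout ESCs, against 2.52 and 1.78 CPM in control ESCs (log2 change 1.07 ± 0.31, adjusted p 0.0427 in edgeR's quasi-likelihood test), and 3.31 and 3.5 CPM in knockout EBs, against 2.12 and 2.74 CPM in control EBs (0.49, adjusted p 0.415). The H2-Ab1 call was lost with any 1 of the 8 libraries left out (adjusted p up to 0.334). H2-Eb1 had 6.93 and 9.24 CPM in knockout ESCs, against 6.11 and 6.57 CPM in control ESCs, and was lower in EBs than in ESCs in both genotypes (-1.34 in the knockout, adjusted p 0.00673, and -0.95 in controls, 0.0266). These calls were lost without knockout EB replicate 2 (0.0616), and in controls without any 1 control library (up to 0.173). Cd74, the invariant chain, stayed between 3.69 and 5.41 CPM with no call. The leukocyte list that holds these genes summed to 44.3 to 55.6 CPM in EBs and 58.8 to 69.2 CPM in ESCs, and Ptprc, its defining marker, had 0 to 2 counts in each library.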
